A study of Mus musculus with 8 samples.

Results

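The 10 genes described here mark stem cells of the small intestinal crypt or respond to the Wnt signal that maintains them: Lgr4, Lgr5, Olfm4, Ascl2, Smoc2, Axin2, Rnf43, Znrf3, Sox9 and Ephb2. They were chosen by symbol from the 52195 genes of the deposited table, and each was read in all 8 libraries. The libraries were made from polyadenylated RNA of whole small intestine, kidney, lung and liver of male mice of the inbred strain C57BL/6J (given as C57BL/6 in the sample labels), at an age of 6 to 10 weeks. No treatment is named in the labels or methods, and each tissue had 2 libraries, stated by the study to be of separate mice. Since 4 tissues were taken from each mouse, libraries of different tissues may share an animal, and which ones do was not given. All groups were of the same genotype as far as the labels say, and the question was how the genes that are largely used in the intestine differed across tissues from Wnt target genes that liver, kidney and lung also use.

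In the canonical Wnt pathway, a secreted Wnt ligand binds a Frizzled receptor with an LRP co-receptor, β-catenin escapes destruction in the cytoplasm and enters the nucleus, and TCF/LEF factors then switch on target genes. Rnf43 and Znrf3 are membrane ubiquitin ligases that remove Frizzled from the cell surface, while R-spondins, bound by the receptors Lgr4 and Lgr5, remove the ligases and so strengthen the signal. In the small intestine the signal is strongest at the base of the crypt, where the stem cells lie between Paneth cells. In the liver it acts in the hepatocytes around the central vein, and in the lung and kidney it is known from development and from epithelial repair.

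All 10 genes are protein coding. In GENCODE M21 (build GRCm38), they lie at chr2:109917647-110014257 (Lgr4, plus strand), chr10:115450311-115587780 (Lgr5, minus), chr14:79984081-80023139 (Olfm4, plus), chr7:142966829-142969264 (Ascl2, minus), chr17:14279506-14404790 (Smoc2, plus), chr11:108920349-108950783 (Axin2, plus), chr11:87662722-87735539 (Rnf43, plus), chr11:5276324-5444847 (Znrf3, minus), chr11:112782224-112787760 (Sox9, plus) and chr4:136647539-136835988 (Ephb2, minus). The reads of 2 of them could be shared with a neighbour: 5.17% of the exon bases of Olfm4 overlap Gm6999 on the same strand, and 3.796% of those of Axin2 overlap the antisense gene Gm11670. The other 8 genes overlap no annotated exon of another gene.

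RefSeq promoter entries (GRCm38.p6) were matched for 6 of the 10 genes, Olfm4, Ascl2, Axin2, Lgr4, Rnf43 and Ephb2, and those of Lgr5, Smoc2, Znrf3 and Sox9 were not matched. The promoters of 3 genes are shown: those of Olfm4 and Ascl2, which had the widest margins of the small intestine over all other libraries, and that of Axin2, which was high in lung too. Each is written 5′ to 3′ on the strand of the gene and ends at the base before the start of transcription, with CpG pairs in capitals. For Olfm4 (chr14:80000052-80000250, plus strand) the last 51 of the 250 upstream bases are left out, because an exon of another annotated transcript covers them. Ascl2 is at chr7:142969265-142969514 (minus strand) and Axin2 at chr11:108920099-108920348 (plus strand).
Olfm4: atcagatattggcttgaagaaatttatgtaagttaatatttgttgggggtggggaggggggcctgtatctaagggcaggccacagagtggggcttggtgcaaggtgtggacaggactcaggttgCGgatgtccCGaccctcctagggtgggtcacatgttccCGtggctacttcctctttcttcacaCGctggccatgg
Ascl2: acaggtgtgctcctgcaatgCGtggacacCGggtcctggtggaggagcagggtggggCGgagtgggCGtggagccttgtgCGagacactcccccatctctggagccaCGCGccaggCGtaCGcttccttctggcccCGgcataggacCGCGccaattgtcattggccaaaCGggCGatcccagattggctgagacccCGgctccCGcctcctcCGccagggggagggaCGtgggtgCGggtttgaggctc
Axin2: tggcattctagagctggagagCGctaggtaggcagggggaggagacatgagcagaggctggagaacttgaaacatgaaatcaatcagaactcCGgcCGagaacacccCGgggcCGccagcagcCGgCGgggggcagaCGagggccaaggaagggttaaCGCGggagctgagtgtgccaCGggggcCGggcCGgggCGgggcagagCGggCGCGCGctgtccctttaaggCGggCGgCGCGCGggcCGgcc

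The Olfm4 promoter held 4 CpG pairs in its 250 bases and the Axin2 promoter 24, against a median of 6 over the 32851 promoters of the table, with 2 at the lower quartile and 16 at the upper. The Ascl2 promoter held 19 pairs. Lgr4 held 10 pairs, Ephb2 20, and the 2 annotated starts of Rnf43 8 and 2. The TCF/LEF core CTTTGA was searched on both strands and was not found in the 250 bases of any of the 6 genes, while 13.8% of all promoters held it. The letters TATAA, searched on the strand of the gene, were found in Olfm4 alone of the 6, beginning 32 bases before the RefSeq start in the bases not shown, and in 16.0% of all promoters. A match is a string of letters and does not show that a factor binds.

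The number of reads counted on genes was between 9164187 and 21444675 per library, with 9360913 and 11323624 in the small intestine. The markers of each tissue's main cells were highest where the label says: the summed FPKM (fragments per kilobase of transcript, scaled by library size) of 6 Paneth cell genes was 14884 and 20715 in the small intestine and at most 371.5 elsewhere, that of 6 hepatocyte genes at least 40140 in liver, that of 6 lung epithelial genes at least 60315 in lung, and, in kidney, that of 6 proximal tubule genes 2296 and 2059 and that of 6 distal tubule and collecting duct genes 1071 and 794, which was at most 4.63 elsewhere. Differences are given on the log2(FPKM + 1) scale, which understates the change of low genes, and a gene was called where the limma adjusted p was under 0.05 and the difference over 1. On this scale the median of all genes tested was not 0: against the mean of the other 3 tissues it was -0.01 in the small intestine, -0.34 in kidney, 0.82 in lung and -0.72 in liver, and -0.05, -0.10, -0.09 and -0.10 after median-of-ratios scaling. Calls of the 10 genes that this scaling removed or added are named beside the gene.

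The 4 markers of the crypt base, Olfm4, Ascl2, Smoc2 and Lgr5, had their highest values in the small intestine, but by very unequal margins. Olfm4, a secreted glycoprotein of the stem cells, was 21.9 times the highest other library even in the lower small intestine library, and Ascl2, the transcription factor that controls stem cell fate, 6.58 times. For Smoc2, a secreted matrix protein, the margin was 2.83 times, and for Lgr5, the R-spondin receptor by which these stem cells are usually marked, 1.03 times. In whole tissue, fewer cells of a type and less RNA per cell cannot be told apart.

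The FPKM of Olfm4 was 182 and 221 in the small intestine, from 5045 and 7417 reads. In kidney it was 8.30 and 3.39, in lung 0.484 and 0.190, and in liver 0.479 and 0.131. The small intestine libraries lay far above all others, and kidney above lung and liver, which overlapped. The mean in the small intestine was 202 ± 27.7 (SD, n = 2), 34.5 times that in kidney, and the difference from the mean of the other 3 tissues was 6.50 (SE 0.28, limma adjusted p = 1.65e-06). In these libraries the gene stood at the 98.1 and 98.6 percentile of the genes tested, and it made up 81.5% and 85.6% of the summed FPKM of the 10 genes, against 1.39% to 28.1% in the other libraries. The gene was called lower in lung (-3.16, SE 0.28, limma adjusted p = 3.3e-05) and in liver (-3.21, SE 0.28, limma adjusted p = 5.03e-05), but not in kidney (-0.14, 95% interval -0.80 to 0.53). The sign in kidney turned with the scaling (0.05 after median-of-ratios scaling), and on recovered reads limma-voom called the gene higher there (1.39, adjusted p = 0.0136). In the mouse Olfm4 is also known from neutrophils, whose 6 marker genes summed to an FPKM of 104 and 396 in lung and of 1.202 and 0.634 in the small intestine, where Ngp was at 0 in both libraries. The part of neutrophils in the Olfm4 values was not tested.

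The FPKM of Ascl2 was 2.30 and 1.63 in the small intestine, from 35 and 30 reads. In lung it was 0.189 and 0.248, from 3 and 5 reads. In kidney (0.0575 and 0) and liver (0 and 0.119) the gene had at most 2 reads in a library, which is under the 3 reads taken as the limit of detection. It was thus detected in the small intestine and, at the limit, in lung, and was not detectable at this depth in kidney and liver. The difference between the small intestine and the mean of the other 3 tissues was 1.42 (SE 0.11, limma adjusted p = 2.71e-05), a value that depends on the pseudocount and was 3.50 with a pseudocount of 0.1.

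The FPKM of Smoc2 was 18.5 and 15.2 in the small intestine, 5.39 and 5.09 in lung, 3.10 and 1.35 in kidney and 1.19 and 1.47 in liver. The order of the tissues was clear down to lung, while kidney and liver overlapped, and after median-of-ratios scaling lung (2.97 and 2.68) overlapped with kidney (3.005 and 1.87) too. The difference between the small intestine and the mean of the other 3 tissues was 2.32 (SE 0.22, limma adjusted p = 8.34e-05), and those from lung alone (1.51, SE 0.27) and kidney alone (2.52, SE 0.27) were called too. The gene was called lower in kidney (-1.04) and liver (-1.59), and neither call held after median-of-ratios scaling (-0.80 and -0.88). Smoc2 is also used by mesenchymal cells. The summed FPKM of 6 genes of the subepithelial mesenchyme, the source of intestinal Wnt and R-spondin signals, was highest in lung, with 46.1 and 52.4 against 13.2 and 11.6 in the small intestine, 14.8 and 10.4 in kidney and 1.14 and 1.74 in liver, where Foxl1 and Grem1 were at 0. Between lung and small intestine, Grem1 and Foxl1 had the higher mean in the small intestine, and Pdgfra, Bmp4, Col6a3 and Gli1 in lung. The summed FPKM of 6 smooth muscle genes was 177 and 150 in the small intestine, 112 and 113 in lung, 5.81 and 3.03 in kidney and 1.91 and 1.57 in liver, and none of the 6 was at 0 in any tissue. Of these 6, Des, Synm and Lmod1 had the higher mean in lung and Myh11, Actg2 and Cnn1 in the small intestine. The part of these cells in the Smoc2 values was not tested.

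The FPKM of Lgr5 was 0.749 and 0.723 in the small intestine, from 72 and 84 reads. In liver it was 0.276 and 0.698, from 26 and 74 reads, while kidney (0.0318 and 0.0225) and lung (0.01996 and 0.0314) had 2 to 7 reads per library. The gene was therefore a gene of small intestine and liver in these data, and the 2 liver libraries differed more from each other than the second of them differed from the small intestine. Lgr5 did not reach an FPKM of 1 in any library and so was not among the genes tested. Both small intestine libraries were above the other 6, which in an exact permutation test (two-sided, 28 possible pairs of libraries) gave p = 0.0357, the smallest p that the design allows. With genes kept from an FPKM of 0.1, the difference from the mean of the other 3 tissues was 0.58 (SE 0.11, limma adjusted p = 0.00526) and that from liver alone 0.24 (95% interval -0.08 to 0.56, limma adjusted p = 0.207). After median-of-ratios scaling the second liver library (1.11) was above both of the small intestine (0.679 and 0.690), so that the first place of the small intestine was lost, as it was after quantile normalization and after scaling each library to the same sum.

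**Figure D1:**
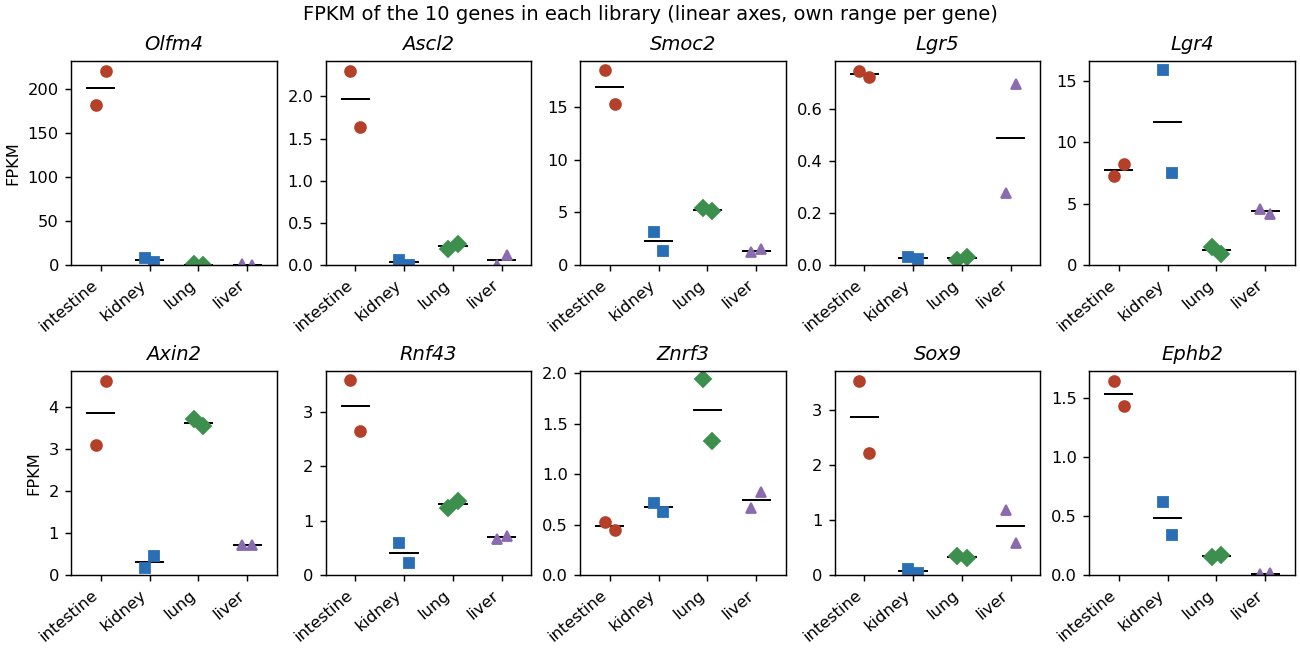
FPKM (linear axes, own range per gene) of each of the 10 genes in the 8 libraries, with 1 point per library and a bar at the mean of the 2 libraries of a tissue. Olfm4 and Ascl2 stand apart in the small intestine and Lgr5 is shared with liver. Lgr4 has its highest mean in kidney but overlaps there with the small intestine. Axin2 overlaps between small intestine and lung, and Znrf3 is lowest in the small intestine.

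Lgr4, the second R-spondin receptor, had higher values than Lgr5 in all tissues. Its FPKM was 15.9 and 7.46 in kidney, 7.26 and 8.21 in the small intestine, 4.60 and 4.15 in liver and 1.46 and 0.916 in lung. Kidney and small intestine overlapped, with a difference of -0.45 between small intestine and kidney (95% interval -1.19 to 0.28, limma adjusted p = 0.281), and lung was below all other libraries (exact permutation test, p = 0.0357, the smallest possible). After median-of-ratios scaling kidney (15.4 and 10.4) was above all other libraries, as it was after quantile normalization, and the difference was -0.74 (limma adjusted p = 0.0294). Against the mean of the other 3 tissues the gene was called higher in kidney (1.36, SE 0.26, limma adjusted p = 0.00308) and lower in lung (-1.92, SE 0.26, limma adjusted p = 0.000289, and -2.58 after median-of-ratios scaling). The call in kidney rested on replicate 1: without it the difference was 0.86. In the small intestine the difference was 0.75 (SE 0.26, limma adjusted p = 0.0414), short of the threshold of 1.

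Set side by side within a library, Lgr4 exceeded Lgr5 in all 8. The ratio of their FPKM values was 9.69 and 11.4 in the small intestine, 16.6 and 5.94 in liver, and 499.6 and 331 in kidney. In the small intestine and liver the ratio was thus between 5.94 and 16.6, with the liver libraries at both ends. The ratios of kidney were higher, but rest on 7 and 4 reads of Lgr5 and so are imprecise. In lung the ratio was 73.3 and 29.2, but these rest on 2 and 4 reads of Lgr5. The ratio did not separate the small intestine from the other 6 libraries (exact permutation test, p = 0.25).

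Axin2, Rnf43 and Znrf3 are negative feedback genes: Axin2 is a scaffold of the complex that destroys β-catenin and the most general of the Wnt targets, and the other two are the Frizzled ligases. Their values did not follow each other over the tissues. As deposited, Axin2 was high in small intestine and lung, whose values overlapped, Rnf43 was highest in the small intestine, and Znrf3 was highest in lung and lowest in the small intestine. After median-of-ratios scaling and quantile normalization, Axin2 was highest in the small intestine and Znrf3 in liver, while Rnf43 kept its first place and Znrf3 its last.

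The FPKM of Axin2 was 3.08 and 4.62 in the small intestine, 3.70 and 3.54 in lung, 0.713 and 0.721 in liver, with kidney lowest at 0.161 and 0.451. The lung libraries fell between those of the small intestine, and kidney was below all other libraries (exact permutation test, p = 0.0357, the smallest possible). The difference between small intestine and lung was 0.05 (95% interval -0.43 to 0.54, limma adjusted p = 0.839), and after median-of-ratios scaling 0.62 (limma adjusted p = 0.0515), when both small intestine libraries (2.79 and 4.41) were above those of lung (2.04 and 1.86). Against the mean of the other 3 tissues Axin2 was called higher in the small intestine (1.14, SE 0.17, limma adjusted p = 0.0009) and lower in kidney (-1.37, SE 0.17, limma adjusted p = 0.000341). It was called higher in lung as well (1.07, SE 0.17), but not after median-of-ratios scaling (0.30, limma adjusted p = 0.197). By its rank within the library Axin2 stood at the 41.0 and 38.3 percentile in lung, close to the 37.0 and 34.4 of liver, and at the 50.8 and 60.7 percentile in the small intestine. Without small intestine replicate 2 the difference in the small intestine was 0.91, under the threshold.

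The FPKM of Rnf43 was 3.58 and 2.65 in the small intestine, 1.23 and 1.36 in lung, 0.666 and 0.724 in liver, with kidney lowest at 0.583 and 0.220. The small intestine was above all other libraries and kidney below all others. The difference between the small intestine and the mean of the other 3 tissues was 1.22 (SE 0.15, limma adjusted p = 0.000355), with 1.56 from kidney and 1.27 from liver called, and 0.83 from lung (limma adjusted p = 0.0056) short of the threshold. Median-of-ratios scaling exchanged the last of these calls: lung was then called (1.19) and liver was not (0.83).

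The FPKM of Znrf3 was 1.95 and 1.33 in lung, 0.664 and 0.822 in liver, 0.715 and 0.629 in kidney and 0.528 and 0.448 in the small intestine. Lung was above the other 6 libraries, as it was for 51.4% of all genes tested, small intestine below them, and liver and kidney overlapped. The difference between the small intestine and the mean of the other 3 tissues was -0.40 (SE 0.12, limma adjusted p = 0.0272), which did not pass the threshold of 1, but on the recovered reads limma-voom gave -1.05 (adjusted p = 0.0181), which did. The difference of 0.68 in lung was not called, and was 0.06 after median-of-ratios scaling, when both liver libraries (1.20 and 1.31) were above those of lung (1.07 and 0.698).

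The ratio of the 2 ligases within a library does not change where a library is scaled by a single factor. Rnf43 over Znrf3 was 6.79 and 5.93 in the small intestine and between 0.3499 and 1.03 in the other 6 libraries (exact permutation test, p = 0.0357, the smallest possible). Axin2 over Znrf3 was likewise 5.84 and 10.3 in the small intestine and between 0.225 and 2.67 elsewhere (exact permutation test, p = 0.0357). The ligase pair was thus made up mostly of Rnf43 in the small intestine and of about equal parts or mostly of Znrf3 in the other tissues. Axin2 over Rnf43 did not separate the small intestine (0.861 and 1.74, within the range of the other libraries, exact permutation test, p = 0.929), and Olfm4 over Lgr5 did not either (exact permutation test, p = 0.179). These 5 ratios, that of Lgr4 over Lgr5 among them, were chosen after the values were seen, and after Benjamini-Hochberg adjustment over the 5 the smallest exact p was 0.0893. The summed FPKM of the 3 feedback genes was 7.20 and 7.72 in the small intestine, 6.88 and 6.22 in lung, 2.04 and 2.27 in liver, with kidney lowest at 1.46 and 1.30.

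**Figure D2:**
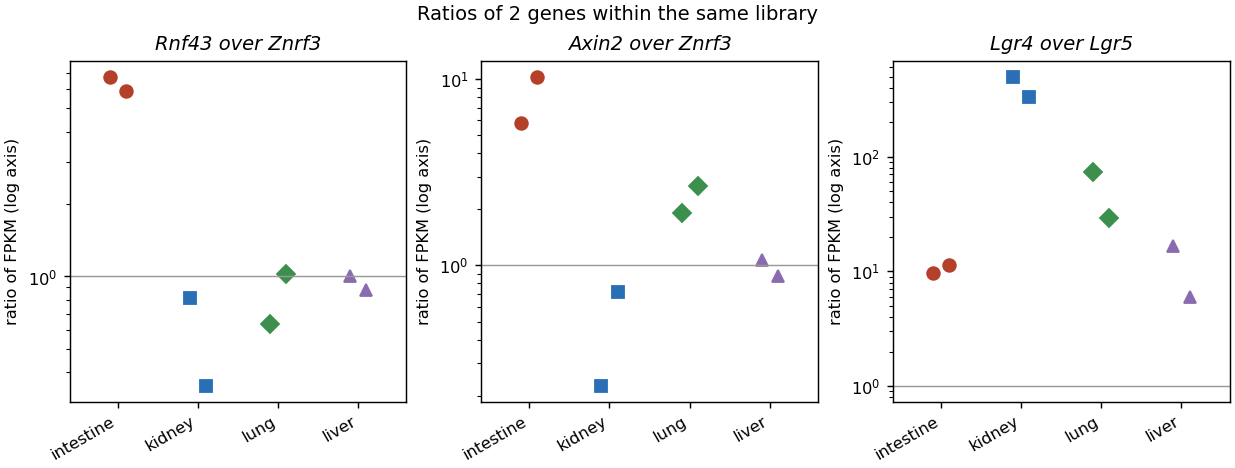
Ratio of the FPKM values of a pair of genes within the same library (log axes, 1 point per library, line at a ratio of 1): Rnf43 over Znrf3, Axin2 over Znrf3 and Lgr4 over Lgr5. The small intestine lies above all other libraries in the first 2 panels and, with liver, at the lower end of the third. There kidney reaches 499.6, a ratio that rests on 7 reads of Lgr5.

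Sox9 and Ephb2 are Wnt-dependent genes of the crypt that are not limited to the stem cell. Sox9 is a transcription factor of crypt progenitors and Paneth cells, and also of bile and pancreatic ducts, and Ephb2 is the receptor kinase that, with its ephrin-B ligands, keeps crypt cells in place. Both were highest in the small intestine, with liver second for Sox9 and kidney second for Ephb2.

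The FPKM of Sox9 was 3.54 and 2.22 in the small intestine, 1.19 and 0.586 in liver, 0.347 and 0.311 in lung and 0.113 and 0.0279 in kidney. No tissues overlapped, although the 2 libraries of kidney, the second with 2 reads only, and of liver lay far apart. After median-of-ratios scaling the first liver library (2.15) was above the second of the small intestine (2.12), and after quantile normalization too (2.56 against 2.34). The difference between the small intestine and the mean of the other 3 tissues was 1.47 (SE 0.17, limma adjusted p = 0.000262). That from liver alone was 1.04 (SE 0.21, limma adjusted p = 0.00418) and was not called after median-of-ratios scaling (0.55, limma adjusted p = 0.0953). In kidney the difference of -0.98 was not called as deposited and was after scaling (-1.03). The small intestine libraries held pancreatic acinar RNA, with a sum of 2425 and 1116 over 8 genes against 3.12 to 77.4 elsewhere. The part of pancreatic cells in the Sox9 values was not tested.

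The FPKM of Ephb2 was 1.64 and 1.43 in the small intestine, 0.618 and 0.339 in kidney, 0.154 and 0.166 in lung and 0.00865 and 0.0154 in liver. No tissues overlapped, and the liver values came from 1 and 2 reads, under the limit of detection. The difference between the small intestine and the mean of the other 3 tissues was 1.08 (SE 0.10, limma adjusted p = 7.05e-05), just past the threshold, and 0.95 after quantile normalization. From kidney alone the difference was 0.78 (95% interval 0.50 to 1.07, limma adjusted p = 0.00129), which was not past it.

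Of the 10 genes, 9 passed the filter on low values, Lgr5 being the exception. Against the mean of the other 3 tissues, 7 of the 9 were called higher in the small intestine and 0 lower, where 13.7% of all 16328 genes tested were called higher and 11.3% lower. Their median difference was 1.22, against -0.01 over all genes tested. The 2 genes not called were Lgr4 and Znrf3. At an unadjusted limma p under 0.05, 8 were higher and 1, Znrf3, lower, and limma-voom called this gene lower too. These counts hold the genes that passed the filter, and Ascl2 and Ephb2 passed it only through their small intestine values and Znrf3 only through lung, so that the share is not one of all 10 genes. Without small intestine replicate 2 the filter removed both, and 4 of 7 genes were called.

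In the other tissues limma called at most 3 of the 9. In kidney 1 gene was called higher, Lgr4 (8.65% of all genes), and 2 lower, Axin2 and Smoc2 (16.1%), while limma-voom on the recovered reads called 3 higher (16.5% of all genes) and 4 lower (21.1%). In lung 1 was called higher, Axin2, where 40.7% of all genes were, and 2 lower, Olfm4 and Lgr4 (8.26%). In liver 0 were called higher (6.56% of all genes) and 2 lower, Olfm4 and Smoc2 (32.7%). The single gene called higher in lung was below the share of all genes there, and after median-of-ratios scaling limma called 0 of the 9 higher in lung (0 at an unadjusted p under 0.05, and 0 by limma-voom, which called 25.2% of all genes), with 15.1% of all genes. In lung limma-voom called 4 of the 9 lower, and 3237 of all 16186 genes. In liver 0 of the 9 had a positive difference at an unadjusted limma p under 0.05 as deposited and 3 after this scaling, and limma-voom called 1 higher (16.1% of all genes) and 3 lower (20.4%).

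Taken tissue by tissue, 6 of the 9 were called higher in the small intestine than in kidney (18.8% of all genes), 6 than in lung (10.1%) and 7 than in liver (28.3%), and 0 were called lower in any of these by limma (10.7%, 30.6% and 7.89%). At an unadjusted limma p under 0.05, 0, 1 and 0 were lower, and limma-voom called 0, 0 and 1. These 3 comparisons share the small intestine libraries. As deposited, Olfm4, Ascl2, Smoc2 and Sox9 were called in each of them, Lgr4 from lung alone, Axin2 and Rnf43 from kidney and liver, and Ephb2 from lung and liver. After median-of-ratios scaling 6, 7 and 5 were called higher (15.7%, 16.6% and 16.5% of all genes) and 0 lower. Rnf43 was then called from lung, and Sox9 and Rnf43 were not called from liver. Ascl2 and Ephb2 had passed the filter only through the small intestine. All 9 differed between the tissues by limma's F test, as did 90.9% of all genes.

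Both small intestine libraries were above every other library for 7 of the 10 genes, and this held for 12.8% of all genes tested. Each of the 3 other scalings tried gave 6. Olfm4, Ascl2, Smoc2, Rnf43 and Ephb2 were among them under all 4, Lgr5 as deposited only, Sox9 as deposited and with the same sum in each library, and Axin2 after median-of-ratios scaling (17.1% of all genes) and quantile normalization (15.2%). Both lung libraries were above all others for 1, Znrf3 (51.4% of all genes), and those of kidney and liver for 0 of the 10 (8.6% and 5.76% of all genes). After median-of-ratios scaling and quantile normalization these counts were 0 in lung (19.8% and 22.6% of all genes), 1 in kidney, Lgr4 (13.0% and 15.4%), and 1 in liver, Znrf3 (16.9% and 15.8%). A margin of at least 4 times was reached by 2 of them, Olfm4 and Ascl2, and by 3.42% of all genes, and a margin of at least 2 times by 4, with Smoc2 and Ephb2, and by 5.76% of all genes. By this measure, as deposited, Rnf43, Sox9 and Lgr5 were highest in the small intestine but not limited to it, and Lgr4, Axin2 and Znrf3 were not highest there in both libraries.

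**Figure D3:**
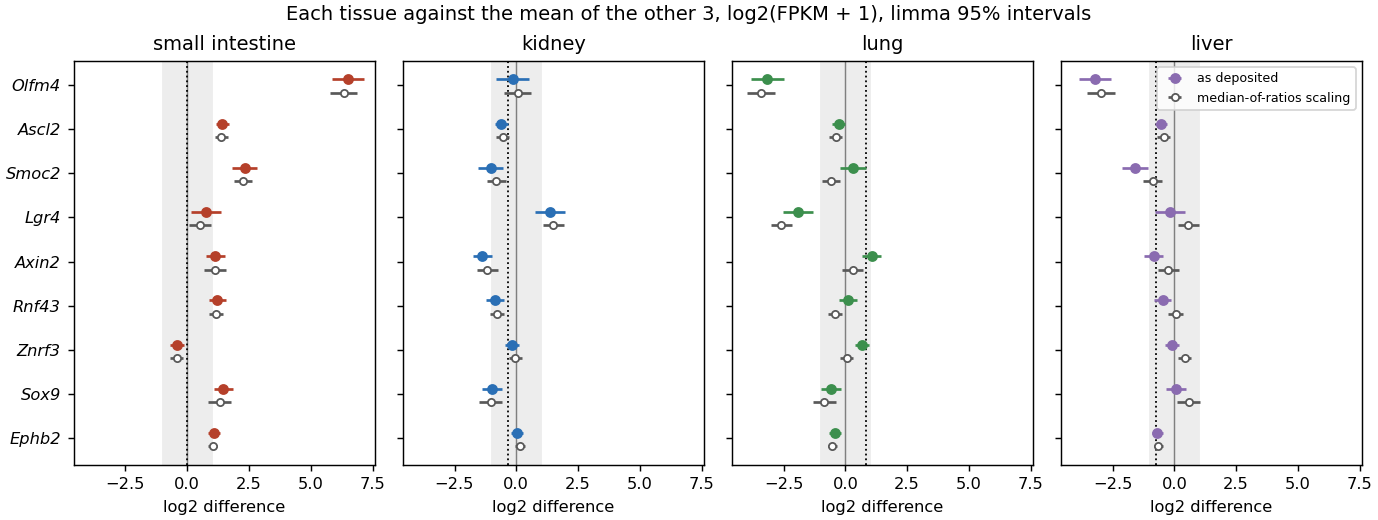
Difference on the log2(FPKM + 1) scale between each tissue and the mean of the other 3 for the 9 genes tested, with limma 95% intervals, as deposited (filled) and after median-of-ratios scaling (open). The shaded band marks differences of up to 1 and the dotted line the median of all genes as deposited; 7 genes lie past the band in the small intestine, and in lung the value of Axin2 moves from 1.07 to 0.30 with the scaling.

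Markers of other cells of the crypt and villus were read beside these genes. Apart from the Paneth cell genes, 6 genes of cycling cells summed to 49.3 and 49.4 in the small intestine, 18.2 and 16.8 in lung, 1.82 and 0.943 in kidney and 1.34 and 1.17 in liver. The part of cell division in the differences was not tested. The 6 genes of villus enterocytes, cells that no longer divide, summed to 6149 and 8132 in the small intestine, and to between 4.27 and 57.9 elsewhere.

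Of 127 other genes of the pathway and of the crypt, 100 passed the filter. Of these, 14 were called higher in the small intestine and 15 lower (13.7% and 11.3% of all genes), with a median difference of -0.19, and the counts were the same after median-of-ratios scaling, when 92 passed. The calls among these genes were thus split about evenly between higher and lower. In lung 59 were called higher and 6 lower, where 40.7% and 8.26% of all genes were, and after scaling 26 and 9 (15.1% and 16.9%). Of the 59, 15 had passed the filter only through their lung values. In liver 7 were called higher and 41 lower (6.56% and 32.7% of all genes), and after scaling 10 and 19 (13.3% and 14.6%). In kidney 9 were called higher and 21 lower (8.65% and 16.1%), and after scaling 13 and 17 (12.3% and 12.7%). Of the genes called higher as deposited, 3 in the small intestine, 2 in kidney and 2 in liver had passed the filter only through that tissue.

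Of the 20 other stem cell and crypt genes, 18 passed the filter, 5 were called higher in the small intestine and 0 lower, where 13.7% and 11.3% of all genes were. At an unadjusted limma p under 0.05, 8 were higher and 5 lower, and limma-voom called 8 higher and 1 lower. The largest differences were those of Clca3b (FPKM 36.9 and 54.9, difference 4.85), Cdca7 (12.8 and 13.1, difference 2.99) and Slc12a2 (20.9 and 24.96, difference 1.81). Slc12a2, a chloride cotransporter of crypt cells, was at 23.4 and 21.0 in lung. In lung 12 of the 18 were called higher, among them Nkd1, Cd44 and Hopx, and 6 of 17 after median-of-ratios scaling, where 40.7% and 15.1% of all genes were. Of the 12, Lgr6 passed the filter only through lung.

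Among 19 Wnt ligands, 11 passed the filter, and limma called 0 higher in the small intestine and 1 lower (13.7% and 11.3% of all genes). At an unadjusted limma p under 0.05, 1 was higher and 8 lower, and limma-voom called 1 higher and 6 lower. The gene that limma called lower was Wnt2, with an FPKM of 0.142 and 0.157 against 3.72 and 5.17 in lung. Wnt3, which Paneth cells make, was at 0.451 and 0.804 in the small intestine, and was not called there. In lung 7 ligands were called higher (40.7% of all genes), and 4 after median-of-ratios scaling (15.1%), Wnt3a, Wnt7a, Wnt11 and Wnt2. Of the 11 ligands, 5 reached an FPKM of 1 in lung alone (Wnt3a, Wnt7a, Wnt9a, Wnt10b and Wnt11) and so passed the filter only through the tissue where they were high. The 2 genes needed to secrete Wnt proteins, Wls, the carrier, and Porcn, the acyltransferase, were both called lower in the small intestine (-1.42 and -1.13) and higher in lung, also after scaling.

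Of the 4 R-spondins, the ligands of Lgr4 and Lgr5, 2 passed the filter. The FPKM of Rspo1 was 8.46 and 10.5 in lung, 1.38 and 1.09 in the small intestine, 0.169 and 0.250 in liver and 0.0962 and 0.0596 in kidney. Rspo3 was at 1.38 and 1.22 in liver, 0.691 and 0.629 in the small intestine, 0.265 and 0.469 in lung and 0.0604 and 0 in kidney. Rspo1 was thus highest in lung, where Lgr4 was lowest and Lgr5 near the limit of detection, and Rspo3 in liver. Rspo2 and Rspo4 were at most at 0.272 in any library, and neither R-spondin that passed was called in the small intestine by limma (-0.10 and 0.17), while limma-voom called Rspo3 higher there (1.38, adjusted p = 0.0363).

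Of 15 Frizzled and LRP receptors, 10 passed the filter, with 1 called higher in the small intestine and 4 lower (13.7% and 11.3% of all genes), and 1 and 3 after median-of-ratios scaling (13.7% and 12.2%). Fzd5, the Frizzled of the intestinal epithelium, had an FPKM of 8.88 and 10.2 there against 0.493 to 2.46 elsewhere (difference 2.32). Fzd4 (-1.76), Fzd1 (-1.38) and Fzd8 (-1.10) were called lower. Of the 13 secreted inhibitors and their partners, Sfrp5 (1.44) and Kremen2 (1.29), which both passed the filter only through their small intestine values, were called higher, and Notum (-1.95), the enzyme that inactivates Wnt, lower. Notum is a Wnt target of pericentral hepatocytes, and was at 5.53 and 7.08 in liver and at 0.399 and 0.110 in the small intestine.

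In the intracellular part of the pathway limma called no gene in the small intestine against the mean of the other 3 tissues. Of 14 genes of the β-catenin destruction complex and its regulators 13 passed the filter, and of 9 TCF/LEF factors and co-activators 8, and 0 of either were called there by limma in any direction. At an unadjusted p under 0.05, 2 genes of the complex were higher and 0 lower, and 2 of the factors higher and 3 lower, and limma-voom called 0 genes of the complex, and 1 of the factors higher and 2 lower. In lung 5 and 6 were called higher (40.7% of all genes), of which Dvl2 and Amer1, and Pygo1, passed the filter only through lung, and after median-of-ratios scaling 0 and 2 (15.1%), the latter Tcf7 (FPKM 15.3 and 17.7 as deposited) and Tcf7l1.

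The other Wnt targets were read in the same way. Of 14 general targets 11 passed the filter. In the small intestine Sp5 (FPKM 8.65 and 4.92, difference 1.84) and Myc (5.74 and 5.66) were called higher, and Notum and Ccnd1 (-1.12) lower. The shares of all genes there were 13.7% and 11.3%. In kidney 2 were called higher, Ccnd1 and Sp5, and 6 lower (8.65% and 16.1% of all genes). After median-of-ratios scaling the kidney counts were 2 and 4 (12.3% and 12.7%). Sp5 was not called between small intestine and kidney. In lung 8 were called higher, led by Nkd1 (36.2 and 34.96), Cd44 (19.2 and 20.9) and Tcf7, and 5 after median-of-ratios scaling, where 40.7% and 15.1% of all genes were. Of the 8, Apcdd1 passed the filter only through lung. Of 10 pericentral Wnt targets of the liver, 9 passed, and 6 were called higher in liver and 2 lower, Tbx3 and Slc13a3 (6.56% and 32.7% of all genes), and after scaling 7 and 1, Tbx3 (13.3% and 14.6%). Of those called higher, Cyp1a2 and Slc1a2 passed the filter only through liver. Cyp1a2 was at 257 and 256 there and Cyp2e1 at 2138 and 1658, against at most 0.967 and 428 in the other tissues. Glul, glutamine synthetase, was at 40.5 and 75.6 in liver, 70.2 and 38.3 in kidney, 68.4 and 45.4 in lung and 6.27 and 6.88 in the small intestine, and was not called in liver as deposited (0.99) but was after median-of-ratios scaling (1.99, limma adjusted p = 0.000356). In the small intestine 2 of the 9 were called higher, Tbx3 (11.4 and 15.7) and Oat (295 and 354), and 6 lower (13.7% and 11.3% of all genes). In kidney 2 were called higher, Slc13a3 and Cyp2e1, and 5 lower (8.65% and 16.1%). After median-of-ratios scaling the kidney counts were 3 and 6 (12.3% and 12.7%).

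Among the partners of Ephb2, 5 of 7 passed the filter. In the small intestine 1 was called higher, the ligand Efnb2 (FPKM 7.26 and 6.82, difference 1.02), and 0 lower (13.7% and 11.3% of all genes). In lung Efnb2 was at 19.2 and 30.2. All 5 were called higher in lung (40.7% of all genes), of which Ephb6 passed the filter only through lung. After median-of-ratios scaling 4 of 4 were called higher there (15.1%). In liver 0 were called higher and 4 lower (6.56% and 32.7%). Of 7 Notch genes of the crypt, Atoh1, the factor that directs cells to the secretory lineage, was called higher in the small intestine, at 4.03 and 5.95, the tissue through which alone it passed the filter, and was at most 0.0379 in any other library. It was the 1 gene of the list called higher there, and 0 were lower (13.7% and 11.3% of all genes). In lung 6 of 7 were called higher (40.7%), of which Notch1 and Notch2 passed the filter only through lung. After median-of-ratios scaling 2 of 6 were called higher in lung (15.1%).

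**Figure D4:**
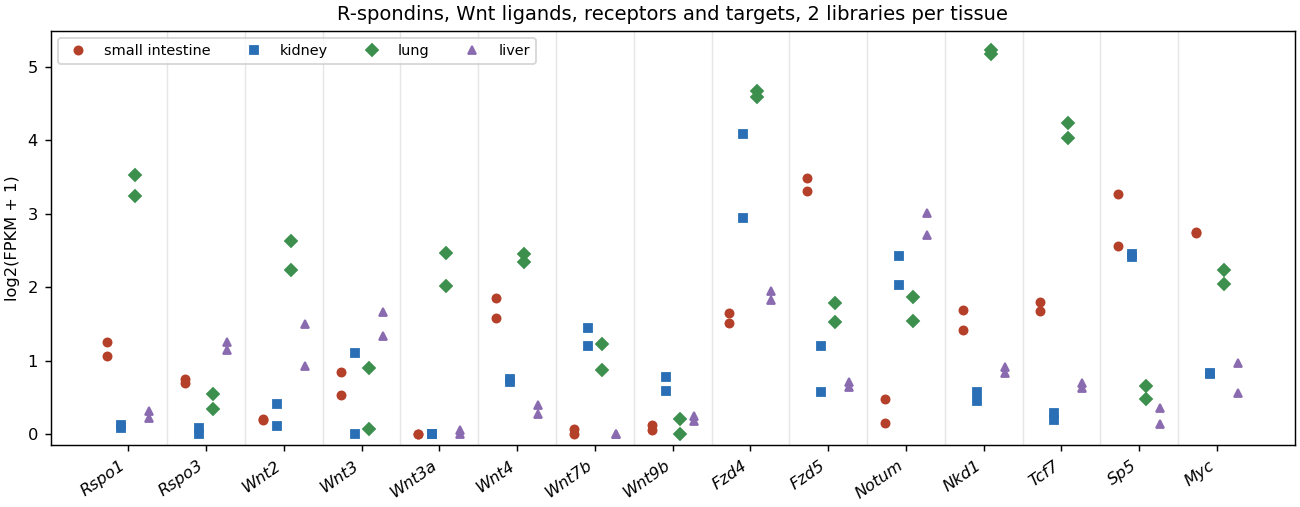
log2(FPKM + 1) of R-spondins, Wnt ligands, receptors, inhibitors and targets in the 8 libraries, with 1 point per library. Rspo1, Wnt2, Wnt3a, Nkd1 and Tcf7 are highest in lung, Rspo3 and Notum in liver, and Fzd5 and Myc in the small intestine.

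For each of the 9 genes tested, the gene with the nearest profile over the 8 libraries was sought among the 108 other genes of these lists that passed the filter, by the Euclidean distance of the log2(FPKM + 1) values after each gene was centred on its mean. The nearest to Ascl2 was Kremen2 (0.425), followed by Sfrp5 (0.431) and Rnf43 (0.586). Kremen2 was nearest to Rnf43 as well (0.577), Sfrp5 to Ephb2 (0.789) and Ascl2 to Sox9 (0.962). Ascl2, Ephb2, Kremen2 and Sfrp5 had all passed the filter only through the small intestine, so that the filter itself favoured likeness among them. Smoc2 was nearest to Fzd5 (0.608) and Axin2 to Myc (0.883), which was also high in small intestine and lung. Znrf3 was nearest to Lgr6 (0.573), the third receptor of the family, which was at 1.03 and 1.12 in lung and at most 0.0613 in any other library, and both genes had passed the filter only through lung. Olfm4 and Lgr4 had no near neighbour, with distances of 4.58 to Clca3b and 2.30 to Ephb2. Distances grow with the spread of a gene over the tissues, so that they are given as a description, over 8 libraries that share 4 tissues.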

How the data were processed

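Polyadenylated RNA of small intestine, kidney, lung and liver was sequenced from double-stranded cDNA, with 2 libraries per tissue and 8 in all. According to the methods of the study, the authors selected reads by sample index with bbduk, mapped them with STAR 2.5.3a to the Ensembl release 75 mouse genome, and deposited FPKM values (DESeq2, fpkm function). How reads were counted, whether by strand and with or without multiply mapping reads, is not given in the sources used here. All columns were matched to a sample by name.

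Reads were recovered as FPKM times the GENCODE M21 exon length (GRCm38), with 94.5% to 96.1% of low values (up to 50 reads) whole within 0.02 reads. Smoc2 did not give whole reads with this length, and no reads are given for it. Counts under 3 reads were taken as not detectable. This limit covers counting error only.

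The 16328 genes that reached an FPKM of 1 in 2 libraries or more entered the tests on log2(FPKM + 1) with limma 3.58.1 (lmFit, eBayes with a trend) in R 4.3.3, all 8 libraries sharing one estimate of the spread, with Benjamini-Hochberg adjustment over all genes of a comparison. Calls required an adjusted p under 0.05 and an absolute difference over 1. Single values were compared by exact permutation tests (two-sided, scipy 1.17.1, Python 3.11.15). The limma step was tested on simulated data. With 2 libraries per tissue the precision is limited by their number and, for low genes, by depth. Alternatives changed the pseudocount, the filter, the scaling, the trend, a replicate block, a test on recovered reads with limma-voom, and the libraries included.

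The 10 genes and the gene lists were chosen with earlier results of these data known. Of each list, up to 3 called genes per direction with the largest difference are named, and every gene of lists of 4 or fewer. Genes named beyond this (Wnt3, Glul and those shown for their values in other tissues) were chosen after their values were seen. The result of 1 marker list is not reported here.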

Additional observations from a re-analysis of the deposited data

How the results depend on the processing

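Of the 177 counts recomputed under the alternatives, 165 stayed within 1.5 times their value in the report, and no called value reversed. With a pseudocount of 0.1, 6 of the 10 genes were called in kidney, 5 in liver and 45 of the pathway genes in the small intestine (3, 2 and 29 in the report). With limma-voom on recovered reads these were 7, 4 and 48. Median-of-ratios scaling and quantile normalization each left 1 call in liver, and quantile normalization left 4 of 7 between small intestine and liver. At a margin of 2 in place of 4, 4 genes were limited to the small intestine in place of 2. Leaving out one library at a time, the calls in the small intestine ranged from 4 (without its replicate 2) to 7, those between small intestine and liver from 4 (without small intestine replicate 1) to 7, and the pathway calls from 23 to 29. The causes were not tested, other than that with a small intestine library left out 7 genes passed the filter in place of 9. Of the values of single genes, 665 stayed on their side of the threshold, 23 lost their call and 14 gained one: Sox9 in kidney under 6 alternatives, Rnf43 between small intestine and lung under 4, Ephb2 between small intestine and kidney under 2, and Znrf3 under 1 in lung and under 1 in the small intestine. The sign turned for 9 values of 4 differences, none of them called in the report. Olfm4 in kidney was 0.80 with a pseudocount of 0.1, 0.055 after median-of-ratios scaling, 0.096 after quantile normalization, 1.39 by limma-voom, and from -0.68 to 0.40 with a library left out (0.40 without kidney replicate 2). Znrf3 in lung was -0.25 after quantile normalization. Axin2 between small intestine and lung was -0.24 with the same sum in each library, and from -0.18 (without small intestine replicate 2) to 0.28 with a library left out. Lgr4 between small intestine and kidney was from -0.95 to 0.044 (without kidney replicate 1).

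The correlation between tissues of the difference between replicates was from -0.217 to 0.0528. With a single such difference per tissue, this cannot show whether libraries of the same number share a mouse, and no pairing was used. With a replicate block, 7 genes were called in the small intestine, 3 in kidney, 3 in lung and 2 in liver, as without it, and 29 pathway genes. The exact test cannot give a p under 0.0357 with 2 of 8 libraries. Low genes are limited by depth: Lgr5 in lung, Ascl2 in kidney and liver, and Ephb2 in liver rest on 0 to 4 reads per library.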
